A study of Mus musculus with 6 samples.

Results

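The Wnt family genes examined here are the ligands, their receptors, their secreted antagonists and 2 intracellular genes of the pathway, and they were chosen by symbol. All array probes annotated to a single gene whose symbol begins with Wnt, Fzd, Sfrp or Dkk followed by a digit were taken, together with Lrp5, Lrp6, Wif1, Axin2 and Ctnnb1. This gave 76 probes for 43 genes, out of 19057 genes named on the array. Of the 43, 19 are Wnt ligands, 12 are receptors, 4 are secreted frizzled-related proteins (Sfrp), 4 are Dickkopf proteins (Dkk) and the others are Wif1, Axin2, Ctnnb1 and Fzd10os, a noncoding transcript beside Fzd10 that the symbol pattern also catches. Each gene was read from its probe of highest mean over the 6 arrays.

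Subcutaneous fat was taken at 12 weeks of age from male mice of the FVB strain, and 3 arrays were run for wild type animals and 3 for mitoNEET transgenic animals. MitoNEET, the product of Cisd1, sits in the outer membrane of mitochondria and carries an iron-sulfur cluster. The descriptions of all 6 samples carry the tag aP2, an older name of the Fabp4 gene whose promoter is often used to drive transgenes in fat, but the labels do not state the promoter of this transgene. Nor do they say whether the 3 arrays of a group are 3 animals. The p-values therefore reflect array-to-array spread that may be technical, and precision is limited by how few arrays there are.

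Secreted Wnt proteins bind Frizzled receptors. In the canonical branch, Lrp5 or Lrp6 joins the receptor and beta-catenin, the product of Ctnnb1, escapes degradation and activates genes with the Tcf and Lef factors; Axin2 is both a target and a brake of this branch. Sfrp proteins and Wif1 bind Wnt ligands outside the cell, and several Dkk proteins block Lrp5 and Lrp6. In fat, canonical signalling is known for holding back the differentiation of adipocyte precursors.

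Facts of the whole data set bear on these genes. Intensities had been normalized to a common distribution, with array medians of 54.8, and a probe was taken as above background when it exceeded 55.6. Cisd1, the gene of the transgene's product, read 1035, 773 and 937 on the wild type arrays and 1091, 1106 and 1060.2 on the transgenic arrays, for a log2 difference of 0.26 (SE 0.11) whose adjusted p was 0.163. Defining adipocyte genes were all above background (14 of 14 listed genes on the array, Adipoq and Plin1 among them). Lymphocyte genes differed between the groups: 11 of 13 T and NK cell genes and 9 of 9 B and plasma cell genes above background were lower in transgenic tissue. Over all features 8.26% were lower. Wild type array 2 stood apart in skeletal muscle genes, whose summed intensity was 22431 there against 681 to 1825 on the other 5 arrays, and transgenic array 1 had the lowest lymphocyte levels. Results are therefore also given without these 2 arrays. In whole tissue, fewer cells of a type and less RNA per cell cannot be told apart.

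In transgenic tissue the antagonist gene Sfrp1 and the receptor genes Fzd4 and Fzd5 were higher, and the pathway target Axin2 and the ligand gene Wnt10a were lower. Of the 43 genes, 22 were above background on 3 or more arrays (51.2%, against 60.2% of all named genes), and 15 of them on all 6. The groups were compared by limma's moderated test over 14962 features, with a threshold of 0.05 on the adjusted p. Of the 22 genes tested, 3 rose (13.6%), where 5.11% of all features rose, and 2 fell (9.09%), where 8.26% of all features fell. In both directions together 5 of 22 passed, against 13.4% of all features. The transgenic arrays were all higher than the wild type arrays in 6 genes (27.3%), as in 18.5% of features, and all lower in 5 (22.7%), as in 17.4% of features. Wnt10a and Wif1 were above background on wild type arrays alone, and Sfrp2, Sfrp5 and Fzd10 on more arrays of one group than of the other, so the filter favours a difference in such genes. The median log2 difference was 0.13 over the 22 genes, 0.04 over all 43 without a filter and 0.03 over all features. Whether the family's share of calls differs from that of all features was not tested.

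**Figure D1:**
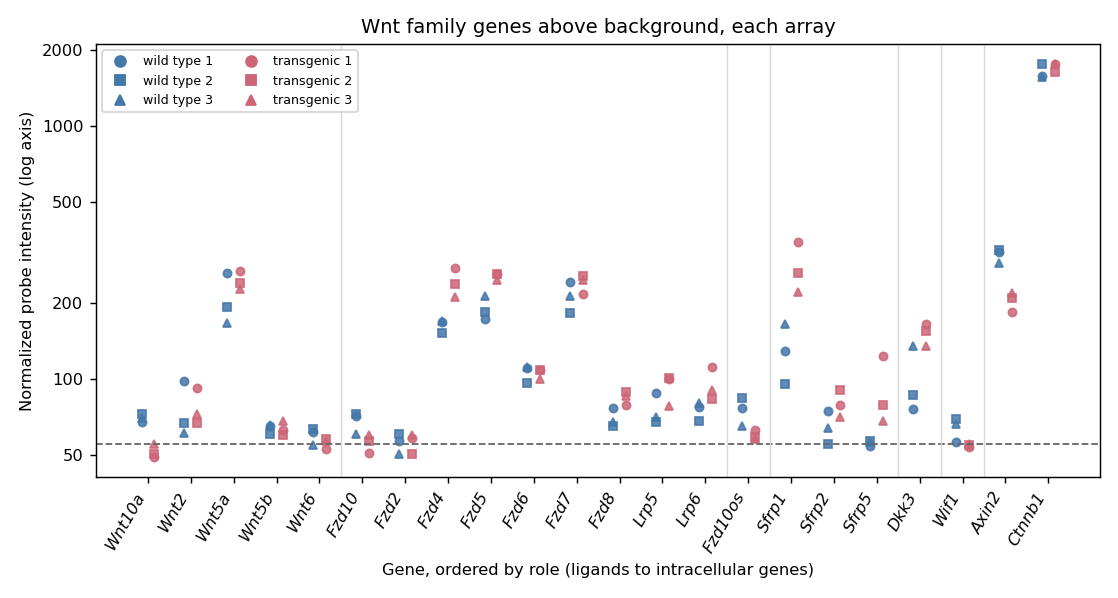
Normalized probe intensity (log axis) of the 22 Wnt family genes above background on 3 or more arrays, ordered by role from ligands to intracellular genes; blue points are the 3 wild type arrays, red points the 3 transgenic arrays, and the dashed line is the background threshold of 55.6. The Sfrp1 points of the transgenic arrays (222 to 349.9) lie above those of the wild type arrays (95.6 to 165), and many other genes read within a small margin of the line; heights of different probes are not comparable.

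**Figure D2:**
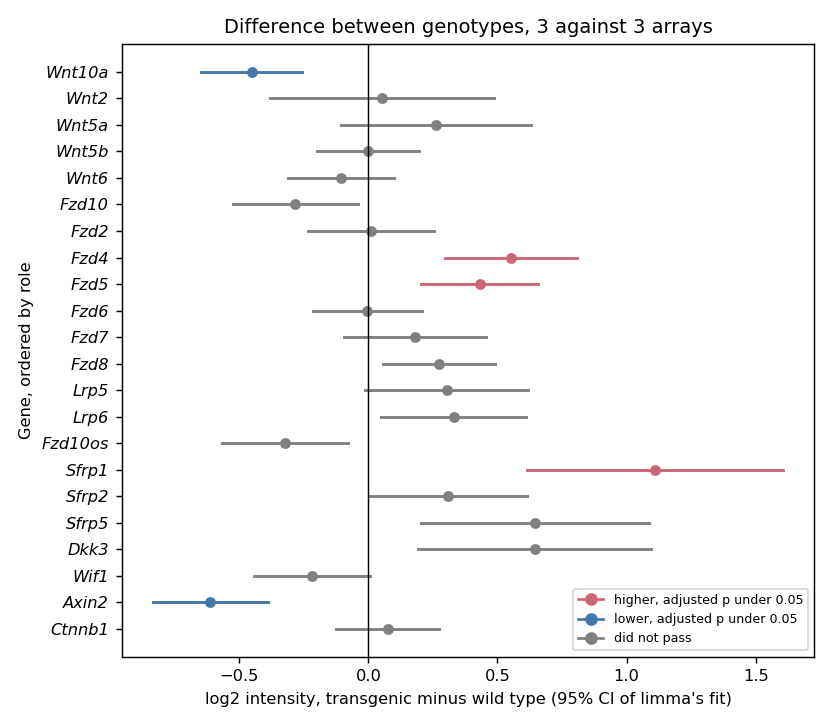
Log2 difference of intensity, transgenic minus wild type, for the same 22 genes, with points for limma's estimate and bars for its 95% confidence interval (3 arrays against 3). Red marks the 3 genes that rose, blue the 2 that fell and grey the 17 that did not pass; Sfrp1 has the highest estimate, 1.11, and Axin2 the lowest, -0.61.

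Of the 19 Wnt ligand genes, 5 were above background and 1 of these fell, where 8.26% of all features fell. Wnt10a, a ligand best known from skin appendages and teeth and also active in fat precursors, read 67.9, 73.2 and 70.6 on the wild type arrays and 49.1, 50.5 and 55.3 on the transgenic arrays. The groups did not overlap, and no transgenic array was above background. Wnt10a thus passed the filter through the wild type arrays alone, so its call is not independent of the filter. With the filter on all 6 arrays it was not tested. The measured means were 70.5 ± 2.67 (SD, n = 3) and 51.6 ± 3.21 (SD, n = 3), with a log2 difference of -0.45 (SE 0.09, adjusted p = 0.0186). Because the transgenic level is only bounded by the threshold, the measured Wnt10a level was at least 1.27-fold higher in wild type tissue. This bound leaves out array-to-array spread. Wnt10a no longer passed without wild type array 2 (log2 -0.42, adjusted p = 0.0697), without transgenic array 1 (-0.42, 0.0622), without transgenic array 2 (-0.44, 0.0727) and after a background level was subtracted (-0.50, 0.0766). Without both wild type array 2 and transgenic array 1 it did not pass either (adjusted p = 0.154).

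The other 4 ligand genes above background did not pass. Wnt5a, the main ligand of the branch that does not act through beta-catenin, read 264, 193 and 167 in wild type tissue and 268, 241 and 227 in transgenic tissue. Wild type array 1 lay among the transgenic arrays, so the groups overlapped. The log2 difference was 0.26 (95% confidence interval -0.10 to 0.63, adjusted p = 0.307), and without wild type array 1 it was 0.45 (adjusted p = 0.0439). The 3 Wnt5a probes above background gave log2 differences from 0.10 to 0.26.

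Wnt2, a ligand of the canonical branch, read 98.7, 67.4 and 61.0 in wild type tissue and 92.7, 67.0 and 73.0 in transgenic tissue, with array 1 of each group the highest. Its log2 difference was 0.05 (95% confidence interval -0.38 to 0.48). Wnt5b, a close relative of Wnt5a, lay between 60.5 and 68.3 on all 6 arrays, with a log2 difference between -0.20 and 0.20 in its 95% confidence interval. Wnt6 read 62.0, 63.7 and 55.2 against 53.2, 57.8 and 57.0 and was above background on 4 arrays.

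No probe of the other 14 ligand genes was above background on 3 arrays. These were Wnt1, Wnt2b, Wnt3, Wnt3a, Wnt4, Wnt7a, Wnt7b, Wnt8a, Wnt8b, Wnt9a, Wnt9b, Wnt10b, Wnt11 and Wnt16. Wnt10b, the ligand most often studied as an inhibitor of fat cell formation, has 2 probes here, and on its brighter probe only wild type array 1, at 56.6, exceeded the threshold. The brightest probes of all 21 family genes below background lay between 41.0 and 63.6. Such readings do not show whether a gene is silent or its probe reads poorly.

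Among the 12 receptor genes 9 were above background, and 2 of these rose, where 5.11% of all features rose. Fzd4, a receptor for several Wnt ligands and for Norrin that is prominent in blood vessels, read 169, 153 and 170.1 in wild type tissue and 275, 239 and 211 in transgenic tissue. Every transgenic array lay above every wild type array. The means were 164 ± 9.64 (SD, n = 3) and 242 ± 32.4 (SD, n = 3), a 1.47-fold rise (log2 0.55, SE 0.11, adjusted p = 0.0212). A further Fzd4 probe gave a log2 difference of 0.69 (adjusted p = 0.0273 with every probe tested separately), with 163, 126 and 165 against 272, 271 and 192.

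Fzd5, a receptor of several Wnt ligands, read 173, 184 and 214 in wild type tissue and 261, 260.2 and 246 in transgenic tissue, again without overlap. It rose 1.35-fold (log2 0.43, SE 0.10, adjusted p = 0.0285). The other 3 Fzd5 probes stayed below the background rule, so this call rests on 1 probe. Fzd4 lost its call without wild type array 2 (log2 0.50, adjusted p = 0.0786), without transgenic array 1 (0.45, 0.0616), without transgenic array 2 (0.56, 0.0744) and after background subtraction (0.73, 0.0796). Fzd5 lost its call in 5 of 6 single exclusions, all but that of wild type array 3, with log2 differences from 0.37 to 0.46 in those 5, and after background subtraction (0.55, 0.0833). Without both wild type array 2 and transgenic array 1 neither passed (Fzd4 0.40, 0.152 and Fzd5 0.39, 0.211).

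Markers of blood vessels were read beside Fzd4. All 11 endothelial genes of the marker list on the array were above background. Of these, 1 gene, Cdh5, passed as higher in transgenic tissue, where 5.11% of all features rose. The differences of all 11 were positive, with a median log2 difference of 0.31. Over all features 8230 of 14962 differences were positive, with a median of 0.03. Gpihbp1 (log2 1.09, adjusted p = 0.0601) and Tek (0.31, 0.164) also had every transgenic array above every wild type array and did not pass. Such separation was seen in 3 of the 11, against 18.5% of all features. The summed endothelial intensity was 10479.5 on wild type array 1, 9699.7 on array 2 and 15850 on array 3, and 15686 to 15920.5 on the transgenic arrays. In array order Fzd4 read 169, 153 and 170.1 in wild type tissue and 275, 239 and 211 in transgenic tissue. The part of endothelial cells in the Fzd4 difference was not tested.

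The co-receptors of the canonical branch were near background. Lrp5 read 88.4, 67.7 and 71.0 in wild type tissue and 101, 101 and 78.3 in transgenic tissue, with overlap through wild type array 1 (log2 0.30, SE 0.14, adjusted p = 0.175). Lrp6 read 77.5, 68.6 and 80.2 against 112, 83.6 and 90.6. Its groups did not overlap, yet the difference did not pass (log2 0.33, SE 0.12, adjusted p = 0.109), and its other probe gave 0.26.

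Of the other Frizzled genes, Fzd7, a widely expressed receptor, read 242, 183 and 214 against 217, 256 and 248 (log2 0.18, SE 0.12, adjusted p = 0.346). Fzd8 read 76.9, 65.4 and 68.0 against 79.3, 88.8 and 85.9, without overlap and without passing (log2 0.27, adjusted p = 0.0901). Fzd6 (log2 -0.00) and Fzd2 (0.01) had 95% confidence intervals of -0.21 to 0.21 and -0.23 to 0.25. Fzd10 read 71.4, 72.9 and 60.6 in wild type tissue and 51.1, 56.8 and 60.4 in transgenic tissue (log2 -0.28, adjusted p = 0.111), and Fzd10os, its neighbour on chromosome 5 in RefSeq's gene table, read 77.0, 84.0 and 65.6 against 63.3, 58.9 and 58.0 (log2 -0.32, adjusted p = 0.0791). On these probes of the 2 neighbours all transgenic arrays lay below all wild type arrays, and neither gene passed. On a further Fzd10 probe above background the groups overlapped, with 63.9, 56.8 and 52.7 against 49.2, 50.4 and 56.5 (log2 -0.15). Fzd1, Fzd3 and Fzd9 were not above background on 3 arrays.

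The promoters of Axin2, which fell, and of Fzd4 and Fzd5, which rose, are shown because a Wnt target and Wnt receptors moved in opposite directions. They are RefSeq sequences of the GRCm38.p6 build, from 250 bases before to 50 bases after the annotated start, 5′ to 3′ on the gene's strand. Capitals mark GGGCGG or its reverse complement, the core of a GC box, as found by a search of both strands; matches can overlap. Axin2 lies at chr11:108920099-108920398 on the plus strand, Fzd4 at chr7:89404116-89404415 on the plus strand and Fzd5 at chr1:64737701-64738000 on the minus strand.
Axin2: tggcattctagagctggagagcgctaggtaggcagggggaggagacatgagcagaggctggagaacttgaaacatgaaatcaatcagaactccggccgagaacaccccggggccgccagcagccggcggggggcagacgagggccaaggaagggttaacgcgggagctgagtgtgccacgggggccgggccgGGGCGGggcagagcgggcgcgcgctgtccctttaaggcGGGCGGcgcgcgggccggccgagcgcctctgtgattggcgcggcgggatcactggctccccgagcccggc
Fzd4: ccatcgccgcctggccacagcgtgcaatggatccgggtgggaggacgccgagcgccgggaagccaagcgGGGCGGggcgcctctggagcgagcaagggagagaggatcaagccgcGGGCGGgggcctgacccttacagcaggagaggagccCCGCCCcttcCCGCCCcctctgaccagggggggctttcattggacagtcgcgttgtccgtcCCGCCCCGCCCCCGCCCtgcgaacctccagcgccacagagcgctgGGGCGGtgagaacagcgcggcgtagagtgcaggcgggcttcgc
Fzd5: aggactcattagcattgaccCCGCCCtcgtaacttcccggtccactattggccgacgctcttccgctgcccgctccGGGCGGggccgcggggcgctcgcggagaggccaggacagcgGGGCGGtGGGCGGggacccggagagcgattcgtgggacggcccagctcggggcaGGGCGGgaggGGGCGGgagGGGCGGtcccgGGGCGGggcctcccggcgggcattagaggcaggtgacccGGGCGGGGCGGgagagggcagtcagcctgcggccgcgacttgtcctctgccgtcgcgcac

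The search found 2 GC box cores in the Axin2 window, 8 in that of Fzd4 and 10 in that of Fzd5, and 35.7% of all 32851 promoter windows hold at least 1. The core read by Tcf and Lef factors, searched as CTTTGA and CTTTGT on both strands, has no match in these 3 windows, whereas 31.2% of all windows hold 1 of these forms. No match says only that these letters are not in these windows. GC makes up 70.0% of the Axin2 window, 72.7% of that of Fzd4 and 75.7% of that of Fzd5. Of the 43 genes 28 have a promoter in the table, of which 22 hold a GC box core and 7 a Tcf and Lef core.

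Among the secreted antagonists Sfrp1 rose. Sfrp1 encodes a protein that binds Wnt ligands through a Frizzled-like domain and is known to be induced as fat cells differentiate. Its probe read 129, 95.6 and 165 in wild type tissue and 349.9, 262 and 222 in transgenic tissue. The lowest transgenic array lay above the highest wild type array, and transgenic array 1 was the highest of all. The means were 129.8 ± 34.7 (SD, n = 3) and 278 ± 65.3 (SD, n = 3), a 2.16-fold rise (log2 1.11, SE 0.22, adjusted p = 0.0197). A further Sfrp1 probe also gave a log2 difference of 1.11, with 116, 93.2 and 138 against 327, 232 and 195. The difference no longer passed without wild type array 2 (log2 0.91, adjusted p = 0.0601), without transgenic array 1 (0.93, 0.0551), without transgenic array 2 (1.14, 0.0664), without both wild type array 2 and transgenic array 1 (0.73, 0.0657) and after background subtraction (1.55, 0.108).

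Sfrp5, an antagonist secreted by fat cells and known as a partner of Wnt5a, read 54.3, 57.1 and 56.5 in wild type tissue and 124, 79.4 and 68.2 in transgenic tissue. All transgenic arrays lay above the wild type arrays, which were at the background threshold, but the difference did not pass (log2 0.65, SE 0.19, adjusted p = 0.0598). Transgenic array 1 stood above the other 2, and without it the log2 difference was 0.39 (adjusted p = 0.0793). Without transgenic array 3 it was 0.83 and passed (adjusted p = 0.0389).

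Sfrp2, a matrix-associated relative, read 75.1, 55.4 and 64.4 against 79.3, 90.5 and 70.9. Its groups overlapped and it did not pass (log2 0.31, SE 0.13, adjusted p = 0.157). Sfrp4 was below background on all 6 arrays.

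Adipocyte genes were read beside the Sfrp genes. Of 14 adipocyte genes of the marker list on the array, all were above background and 7 were higher in transgenic tissue, with a median log2 difference of 0.37. Over all features 5.11% rose and 8.26% fell, and the median was 0.03. Their summed intensity was 86807 to 99442 on the wild type arrays and 108064 to 112553 on the transgenic arrays. Of 14 progenitor and fibroblast genes, all above background, 2 were lower (Thy1 and Dpp4), and the sums overlapped, at 10783 to 19445 in wild type tissue and 11083 to 15791 in transgenic tissue. The part of either cell type in the Sfrp1 difference was not tested.

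Dkk3 and Wif1 did not pass. Dkk3, a divergent Dickkopf member whose link to Wnt receptors is weaker than that of its relatives, read 76.2, 87.0 and 136 in wild type tissue and 165, 155 and 135 in transgenic tissue. Wild type array 3 lay just above transgenic array 3, and this was the only overlap. The log2 difference was 0.64 (SE 0.20, adjusted p = 0.0645), and without wild type array 3 it was 0.89 and passed (adjusted p = 0.0104). The other Dkk3 probe above background gave 0.69 and passed when every probe was tested separately (adjusted p = 0.0315). Wif1, a secreted Wnt inhibitor, read 56.4, 69.4 and 66.4 against 53.9, 55.2 and 55.5, and no transgenic array was above background. Its measured level was at least 1.15-fold higher in wild type tissue, a bound that leaves out array-to-array spread. With that spread taken into account in limma's test, the Wif1 difference did not pass (log2 -0.22, SE 0.10, adjusted p = 0.169). Dkk1, Dkk2 and Dkk4, which act on or near Lrp5 and Lrp6, were not above background on 3 arrays.

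**Figure D3:**
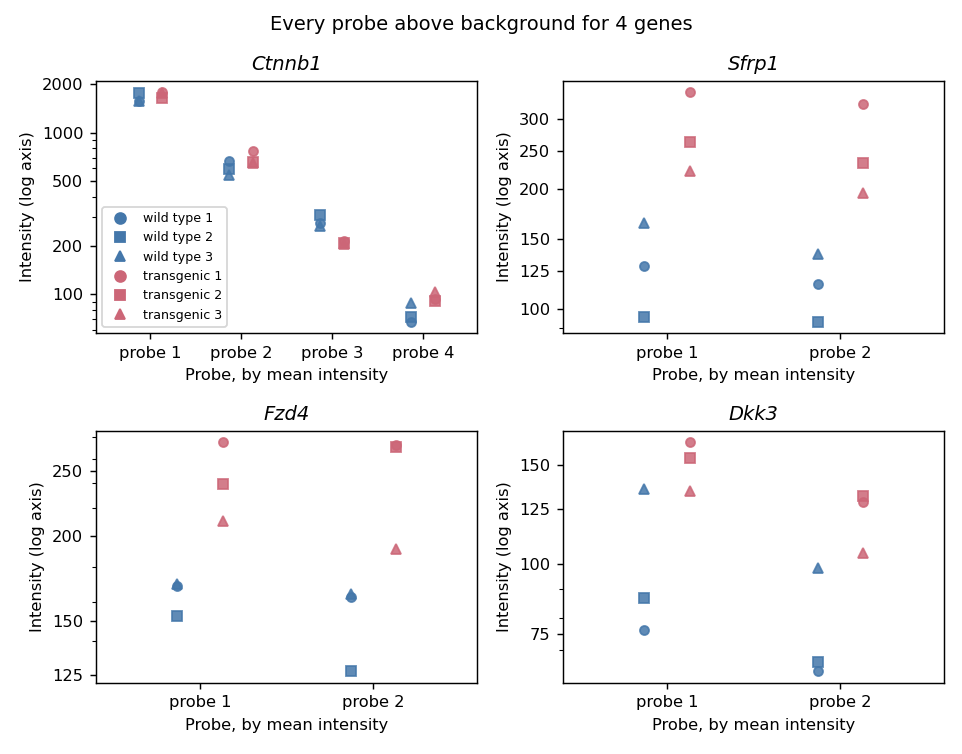
Intensity (log axis) of every probe above background on 3 or more arrays for Ctnnb1, Sfrp1, Fzd4 and Dkk3, with blue points for wild type arrays and red points for transgenic arrays and probes ordered by mean intensity. The probes of Sfrp1, Fzd4 and Dkk3 all have the higher mean in transgenic tissue, whereas the third Ctnnb1 probe (264 to 308 in wild type, 205 to 213 in transgenic tissue) runs against the other 3.

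Inside the cell, Axin2 fell and Ctnnb1 did not pass. Axin2, a scaffold of the complex that degrades beta-catenin and one of the most general targets of canonical signalling, read 319, 324 and 289 in wild type tissue and 184, 209 and 219 in transgenic tissue. The highest transgenic array lay below the lowest wild type array. The means were 311 ± 18.9 (SD, n = 3) and 204 ± 17.8 (SD, n = 3), a 1.53-fold fall (log2 -0.61, SE 0.10, adjusted p = 0.0148). The call was lost in 1 of 6 single exclusions, without transgenic array 2 (log2 -0.63, adjusted p = 0.0531). It was also lost without both wild type array 2 and transgenic array 1 (-0.51, 0.0805) and after background subtraction (-0.76, 0.0714). Axin2 has 1 probe on the array.

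Ctnnb1, the beta-catenin gene, read 1576, 1767 and 1571 in wild type tissue and 1769, 1645 and 1759 in transgenic tissue on its brightest probe. The groups overlapped, with a log2 difference of 0.08 (95% confidence interval -0.12 to 0.27, adjusted p = 0.603). Its 4 probes disagreed. The third by intensity read 278, 308 and 264 against 213, 207 and 205 and passed as lower when every probe was tested separately (log2 -0.44, adjusted p = 0.0196). The second by intensity and the dimmest gave 0.20 and 0.34, so the direction for Ctnnb1 depends on the probe. Over the 9 genes with more than 1 probe above background, only Ctnnb1 and Fzd6 had probes on opposite sides of 0, and those of Fzd6 lay at -0.00 and 0.06.

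Other genes of the pathway were read from 7 lists. Of secreted or surface inhibitors outside the family, 2 of 6 above background rose and none fell, where 5.11% of all features rose and 8.26% fell. Of the 6 differences 3 were positive and 3 negative, with a median of 0.00 on the log2 scale. Apcdd1, a membrane inhibitor of Wnt signalling that is also a Wnt target, read 371, 352 and 405 in wild type tissue and 605, 564 and 553 in transgenic tissue (1.53-fold, log2 0.61, SE 0.09, adjusted p = 0.0145), and 0.36 with the mean of its probes. Igfbp4, a binding protein of insulin-like growth factors that can also block Frizzled and Lrp6, read 2873, 3451 and 3712 against 5494, 4903 and 4739 (1.51-fold, log2 0.60, SE 0.12, adjusted p = 0.0191). Neither gene's groups overlapped. Apcdd1 lost its call without transgenic array 2 (adjusted p = 0.0526), and both genes lost theirs after background subtraction (0.0608 and 0.0796). Igfbp4 also lost it without wild type array 2, transgenic array 1 or transgenic array 2 (0.0588 to 0.0654). Over 18 alternatives Apcdd1 lost its call in 3 and Igfbp4 in 5, with adjusted p up to 0.0687 and 0.114.

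Of 18 genes of the beta-catenin transcription complex above background, 4 rose and 3 fell, where 5.11% of all features rose and 8.26% fell, and the median log2 difference was -0.03. Lef1, a factor that carries beta-catenin to its targets, read 122, 172 and 144 in wild type tissue and 50.2, 63.9 and 79.5 in transgenic tissue, a 2.28-fold fall (log2 -1.19, SE 0.18, adjusted p = 0.0145). Its groups were far apart, and transgenic array 1 was below background. The call was lost without transgenic array 2 (log2 -1.20, adjusted p = 0.0527) and after background subtraction (-2.26, 0.0733), and it was kept without both wild type array 2 and transgenic array 1 (-0.90, 0.0307). Ctbp2, a corepressor, rose 1.44-fold, Bcl9, a coactivator of beta-catenin, fell 1.35-fold and Sox9, a developmental factor that binds beta-catenin, rose 1.59-fold, with calls lost in 2, 4 and 4 of 6 single exclusions. The others were Tle3, which fell (log2 -0.34, adjusted p = 0.0457), and Sox17 (0.44, 0.0497) and Ctnnbip1 (0.43, 0.0499), which rose; these 3 were picked for mention once their values were known, and they lost their calls in 6, 5 and 5 of 6 single exclusions. Over 18 alternatives Tle3, Sox17 and Ctnnbip1 lost their calls in 12, 9 and 9. The log2 difference of Tle3 ran from -0.58 to -0.05 over these, with adjusted p up to 0.689. The factors Tcf7l1 and Tcf7l2 had log2 differences of 0.10 and 0.06 and did not pass.

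Lymphocyte levels were read beside Axin2 and Lef1, since Lef1 is also a gene of T cells. The summed intensity of 15 T and NK cell genes was 9665 to 15366 in wild type tissue and 3289.7 to 5966 in transgenic tissue, with Cd5 and Cd8a below background. For 12 B and plasma cell genes it was 4268 to 7031 against 939.6 to 1952, with Pax5, Cr2 and Jchain below background. Transgenic array 1 had the lowest Axin2, the lowest Lef1 and the lowest sums of both lists, and wild type array 2 the highest of each. The other arrays did not all keep this order. Wild type array 1 had more Axin2 than array 3 (319 against 289) but less Lef1 (122 against 144). Its sums were the lower ones (T and NK 9665 against 11312, B and plasma 4268 against 4745). Transgenic array 3 had more Axin2 and Lef1 than array 2. Its T and NK sum was higher (5966 against 5230) and its B and plasma sum lower (1734 against 1952). The part of lymphocytes in the Axin2 and Lef1 differences was not tested.

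Of 11 Wnt target genes above background, 2 rose and 1 fell, where 5.11% of all features rose and 8.26% fell, and the median log2 difference was 0.04. Those that rose were Apcdd1 and Twist1, a transcription factor of mesenchymal cells (log2 0.45, SE 0.13, adjusted p = 0.0485), and the one that fell was Lef1; Twist1 lost its call in 5 of 6 single exclusions. Of the 8 that did not pass, Ccn4, Nkd1, Ccnd1 and Myc had log2 differences of -0.26, -0.16, -0.12 and -0.04, and Nos2, Ccn5, Cdx1 and Nkd2 had 0.13, 0.10, 0.05 and 0.04. Thus Axin2, Lef1 and Apcdd1, all known as targets of canonical signalling, did not move in the same direction.

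Of 12 genes of alternative Wnt receptors and planar polarity above background, 2 rose and none fell, where 5.11% of all features rose and 8.26% fell. Their differences were positive in 6 genes and negative in 6, with a median of 0.00 on the log2 scale. Gpc4, a cell surface proteoglycan, rose 1.43-fold (log2 0.52, SE 0.13, adjusted p = 0.0385) and Prickle2, a planar polarity protein, 1.62-fold (log2 0.69, SE 0.19, adjusted p = 0.0454), and they lost their calls in 4 and 5 of 6 single exclusions. Celsr2 and Prickle1 had log2 differences of 0.62 and 0.37 and did not pass (adjusted p = 0.0677 and 0.0723). Both had every transgenic array above every wild type array. In this list all transgenic arrays were higher in 4 of 12 genes and lower in 3, against 18.5% and 17.4% of all features. Scrib and Fuz, with log2 differences of -0.27 and -0.21 (adjusted p = 0.0992 and 0.163), had every transgenic array below every wild type array. So did Ror2, a receptor of Wnt5a that was not above background on any transgenic array and did not pass (adjusted p = 0.134). Its measured level was at least 1.06-fold higher in wild type tissue, a bound that leaves out array-to-array spread. Of 17 genes of Dishevelled and the destruction complex above background, 0 passed in limma's test; Csnk1g3, a casein kinase, had the smallest p (log2 -0.33, adjusted p = 0.0621). Porcn and Wls, needed to release Wnt ligands, had log2 differences of 0.33 (adjusted p = 0.0759) and 0.26 (0.168). Of 9 R-spondin, receptor and ligase genes on the array, Rspo3 alone was above background, with a log2 difference of -0.03.

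**Figure D4:**
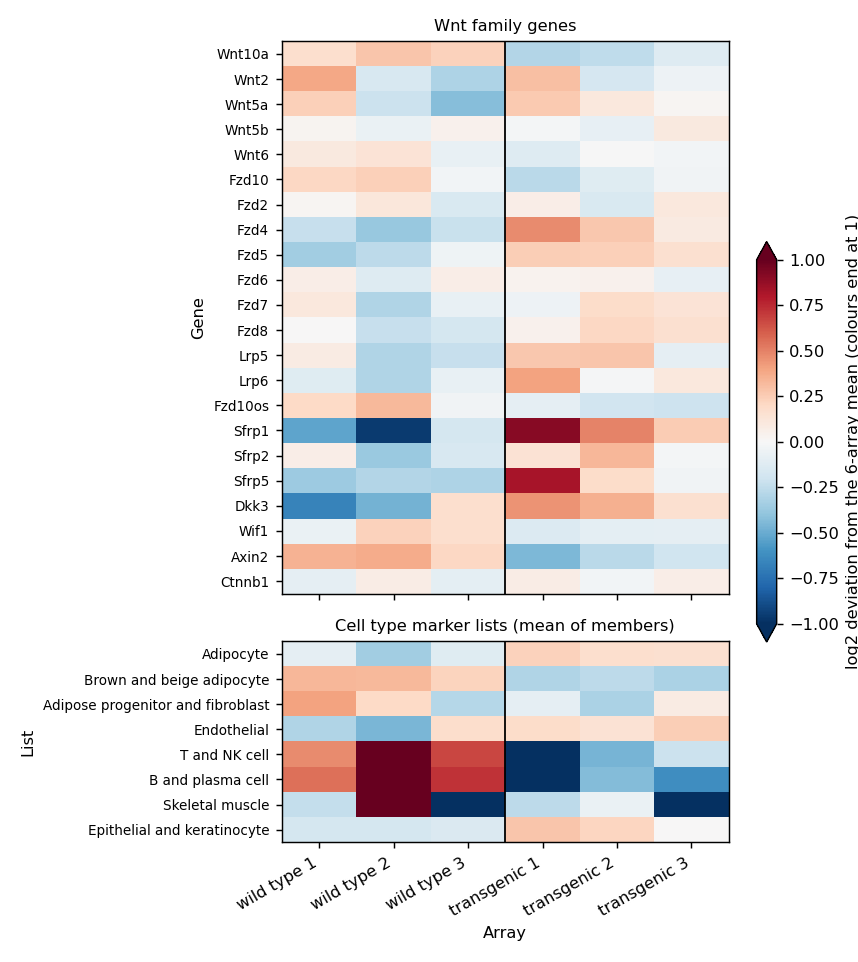
Log2 deviation from the 6-array mean on each array, for the 22 Wnt family genes (top) and as the mean over members of 8 cell type marker lists (bottom); red is above and blue below the mean, colours end at 1, and the black line divides wild type from transgenic arrays. Axin2 and Wnt10a share their sides of the line with the lymphocyte and the brown and beige adipocyte lists. Sfrp1, Fzd4 and Fzd5 share theirs with the adipocyte list and with the epithelial and keratinocyte list.

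Beside the lymphocyte lists, those of adipocytes, of brown and beige adipocytes, of epithelium and of Schwann cells kept the groups on opposite sides of their mean. Mean deviations of the adipocyte list were -0.35 to -0.09 on wild type arrays and 0.16 to 0.23 on transgenic arrays. Those of the brown and beige adipocyte list were 0.22 to 0.33 and -0.32 to -0.26. Of 15 epithelial and keratinocyte genes on the array, which could come with skin or mammary ducts and in which Wnt10a is known to act, 5 were above background and 1 of these, Trp63, was higher in transgenic tissue. Of Schwann cell genes above background, 1 of 5 was higher and 2 were lower, of macrophage genes 0 of 9 passed in limma's test, and of pericyte and smooth muscle genes 1 of 8 was lower. Over all features 5.11% rose and 8.26% fell. The keratins Krt5, Krt14, Krt15, Krt18 and Krt19 and Epcam were below background. The keratin Krt10 was above it, at 307, 262 and 281 in wild type tissue and 415, 430 and 267 in transgenic tissue. Its groups overlapped and it did not pass (log2 0.36, adjusted p = 0.199). Krt8, Cldn7 and Cdh1 were also above background and did not pass. The part of epithelial cells in the Wnt10a difference was not tested.

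The calls depended on single arrays. Without wild type array 2, without transgenic array 1 or without transgenic array 2, no family gene passed as higher, and the numbers that passed as lower were 1, 1 and 0. Over all features the calls were 316, 513 and 0 in these fits, against 2001 with all arrays, so the loss was general. Without transgenic array 2, 3629 features had an unadjusted p under 0.05. Over the 6 single exclusions the log2 difference of Sfrp1 lay between 0.91 and 1.30 and that of Axin2 between -0.66 and -0.54; since the groups of the 5 called genes do not overlap, an exclusion cannot turn their sign. Without both wild type array 2 and transgenic array 1, 0 family genes passed, and 317 features did.

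**Figure D5:**
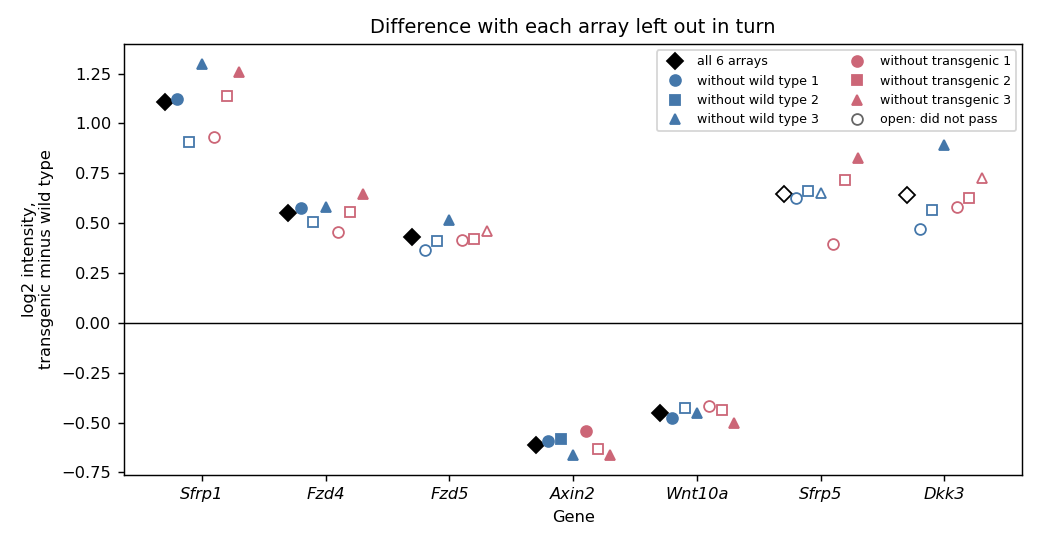
Log2 difference, transgenic minus wild type, of 7 Wnt family genes with all 6 arrays (black) and with each array left out in turn (blue for a wild type array, red for a transgenic array); filled symbols passed an adjusted p of 0.05 and open ones did not. Sfrp1, Fzd4, Fzd5, Wnt10a and Axin2 each turn open in at least 1 exclusion.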

How the data were processed

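Per the labels' protocols, snap-frozen tissue gave total RNA, cleaned and treated with DNase, and biotin-labelled cRNA was hybridised to Illumina arrays. The authors deposited linear probe intensities whose sorted values differ by at most 0.157 between the 6 arrays, as after quantile normalization, and whose lowest value is 32.4, so that background remains in them; the software was not given in the sources used here. Such values hide any change common to most genes, and the background left in them makes folds of dim genes smaller. A scanner table was not used, because its 24 columns of per-array values match no sample's label.

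The background level, 47.8, was taken from the peak of the log2 intensities, and the threshold of 55.6 lies 1.645 spreads above it, the spread being that of values under the peak. Probes above it on 3 of 6 arrays were kept (22037 of 45281). Gene names are those of the platform annotation and may be outdated; all 43 genes were found in RefSeq's GRCm38.p6 gene table. Each gene was read from its brightest kept probe, and unnamed probes were tested singly. Groups were compared on the log2 scale by lmFit and eBayes of limma 3.58.1 (R 4.3.3), without covariates and with Benjamini-Hochberg adjustment over all 14962 features. The fit was tested on simulated data. Fits without an array kept the filter and chose probes on the remaining arrays. A probe below background on every array of a group gives a bound, taken at the lowest value above the threshold and without array-to-array spread. Alternatives changed the offset, background, filter, probe choice, variance model, array weights, centring, block and arrays included. The members and lists were chosen with earlier results of these data known. Genes were named by rule: family genes past the threshold, those without overlap and with a log2 difference of at least 0.3 in size, the 3 brightest of each class, Lrp5, Lrp6, Axin2 and Ctnnb1, and up to 4 genes of smallest p per pathway list; the remaining family genes are accounted for by value or by name. Further genes of the pathway lists, beyond that rule, are named after their values were seen.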

Additional observations from a re-analysis of the deposited data

How the results depend on the processing

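Of 600 values for 34 genes (the 22 family genes and 12 pathway genes) under 18 alternatives, 464 kept their direction and their side of the threshold, 103 lost the call, 11 gained it and 22 changed sign. Against 3 family genes higher and 2 lower with all arrays, 5 were higher with array weights, 0 were higher and 0 lower after background subtraction with a floor of 16 and without both wild type array 2 and transgenic array 1, and 1 was lower with the filter on all 6 arrays. With 1 array left out, 0 to 4 were higher and 0 to 3 lower. Features called, 2001 in all, were 45 after background subtraction, 317 without both arrays and 0 to 2147 with 1 array left out; of the calls, 38.2% were rises. That share was 50.7% when each array was centred on its median, 57.8% after background subtraction, 13.3% without wild type array 2, 17.2% without transgenic array 1, 27.3% without transgenic array 3 and 6.62% without both arrays. The median of the family genes was 0.26 with the filter on all 6 arrays, 0.037 with no filter, 0.27 with a threshold of 3 spreads, and 0.082 to 0.27 with 1 array left out.

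Genes with small differences changed sign. Ctnnb1 was at -0.44 by its probe of smallest p, Fzd2 at -0.059 with array weights, and Wnt2 at -0.15 without both arrays. Fzd6 was at 0.027 with the mean of its probes, 0.057 with probes tested separately, 0.025 with array weights and 0.034 with centring, and Wnt5b at 0.024 after background subtraction and 0.036 with centring. With 1 array left out, Fzd2 ran from -0.061 to 0.089, Fzd6 from -0.070 to 0.036, Wnt2 from -0.087 to 0.26 and Wnt5b from -0.050 to 0.038. The cause was not tested, except that fits on fewer arrays have fewer samples.

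These values do not settle whether replicate numbers pair the samples. Deviations of arrays of the same number correlated at 0.41, 0.22 and -0.03 over 14962 features. The value of 0.41, for the arrays numbered 1, was the highest between any wild type and any transgenic array. Wild type arrays 2 and 3 correlated best with a transgenic array of another number, at 0.23 and 0.09. With the replicate number as a block, 2391 features passed, and 4 family genes were higher (Sfrp5 the added one, adjusted p = 0.041) and 2 lower. Signal over background limits 7 of the 22 family genes, which were not above the threshold on all 6 arrays.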
